A study of Mus musculus with 12 samples.

Results

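Mouse embryonic stem (ES) cells carrying a tetracycline-inducible Neurog1 transgene were compared after 72 h of induction with the same line left uninduced. The comparison holds 6 of the series' 12 Affymetrix arrays, chosen by their titles: 3 arrays of cells expressing Neurog1 at 72 h and 3 arrays of cells in maintenance culture (0 h). Both groups had the genotype 129P2/OlaHsd (E14, Ainv15), and both were grown in serum medium with leukaemia inhibitory factor (LIF), which holds ES cells in self-renewal, puromycin and G418. The induced cells also received doxycycline at 1 ug/ml, the drug that switches the transgene on. The other arrays, 3 each at 24 h and 48 h of induction, are used here as the path towards 72 h. The labels give uninduced arrays at 0 h alone, although the series' design text speaks of uninduced and induced cells at 24, 48 and 72 h, so the transgene, doxycycline itself and the time in culture cannot be told apart. The labels name 1 engineered line and call the arrays biological replicates. Nothing says that the replicates came from separate cultures, so p-values measure the spread between these samples, which may be technical.

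Neurog1 (neurogenin 1) belongs to the basic helix-loop-helix family of transcription factors and is one of the proneural genes. In the embryo it starts neuronal differentiation in cranial placodes, in the dorsal root ganglia and in parts of the neural tube, where it pairs with E-proteins on E-box DNA and switches on further neurogenic factors. Differentiating neurons express Delta ligands that restrain their neighbours through Notch, leave the cell cycle, and then build the neuronal cytoskeleton and synaptic machinery. ES cells, the starting point here, are held pluripotent by factors such as Pou5f1 and Nanog.

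Values are deposited MAS5 signals (linear intensity), and differences are log2 differences of signal + 16, given as 72 h minus uninduced ± the standard error (SE) of limma's fit, with n = 3 arrays in each group. The added 16 understates the change of dim genes. A gene was called when its Benjamini-Hochberg adjusted p from limma was under 0.05, over the 11810 genes tested of 18193 with a probe set. "Rose" and "fell" are used for called genes. "Too dim to test" means not above the array median on all 3 arrays of any group. Such genes can be bright on single arrays. The array is a bulk measure, in which fewer cells of a type and less RNA per cell cannot be told apart.

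The 2% trimmed mean was 150 on each array, and median signals were 19.5 to 26.6 in uninduced cells and 23.8 to 32.8 at 72 h. Uninduced arrays correlated with each other at 0.969 to 0.975 over the genes tested. At 72 h replicates 1 and 2 correlated at 0.988, and replicate 3 stood slightly apart at 0.961 and 0.966. At 24 h replicate 1 stood apart, at 0.811 and 0.787 with replicates 2 and 3, which correlated at 0.977; the 24 h arrays were not in the fit, and their values are given as signals only. The ratio of 3' to 5' Gapdh control probe sets was 0.800 to 0.864 on uninduced arrays and 0.658 to 0.731 at 72 h, with no overlap, and that of Actb was 1.35 to 1.51 and 1.34 to 1.54; their part in the results was not tested. ES cell markers were present in uninduced cells: 8 of 8 exceeded the array median on all 3 arrays, and their summed signal was 41462 to 47789, against 4994 to 5459 at 72 h. At 72 h 7 of the 8, all but Tdgf1, still exceeded the median on all 3 arrays. Of 14 neuron markers, 14 exceeded the median on all 3 arrays at 72 h and 9 did so in uninduced cells, with summed signals of 36058 to 36995 and 4405 to 5263.

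The targeted gene, Neurog1, gave dim signals before induction, of 11.4, 18.7 and 4.53, and stood at 783, 679 and 465 after 72 h. The groups did not overlap, and the difference was 4.58 ± 0.23 (adjusted p = 2.27e-08). With all probe sets of the gene averaged it was 3.47. At 24 h the signals had been 756, 931 and 974. How much of the signal came from the transgene and how much from the endogenous gene was not tested.

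Expression had changed across most of the genes tested. Of 11810 genes, 7295 (61.8%) were called, 4014 higher (34.0%) and 3281 lower (27.8%) at 72 h. A called difference of 1 log2 unit or more was found for 4036 genes (34.2%), 2513 higher (21.3%) and 1523 lower (12.9%). The groups did not overlap in 7726 genes (65.4%), 4221 of them higher (35.7%) and 3505 lower (29.7%) at 72 h. With so large a background, a list's count is read against these shares. The filter bears on the lists too. Of the genes tested, 9924 exceeded the array median on all 3 uninduced arrays, and 27.3% of these were called higher and 32.8% lower. The other 1886 did not and passed through induced arrays, where they had to be high, and 1303 of them were called higher and 28 lower. Counts and medians of lists with many such members are therefore descriptions, and the count over members that passed in uninduced cells is given beside them. The balance of the calls depends on the scaling: 55% of calls were higher with the authors' scaling, 47% after quantile normalization and 40.3% after median centring. The median difference over all genes was 0.09, −0.09 and −0.20 under those scalings in that order, and changes in either direction are relative to it. The number of calls also depends on the arrays fitted. With the 24 h arrays added, in a fit of 12 arrays, 5214 genes were called, 3005 higher and 2209 lower.

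**Figure D1:**
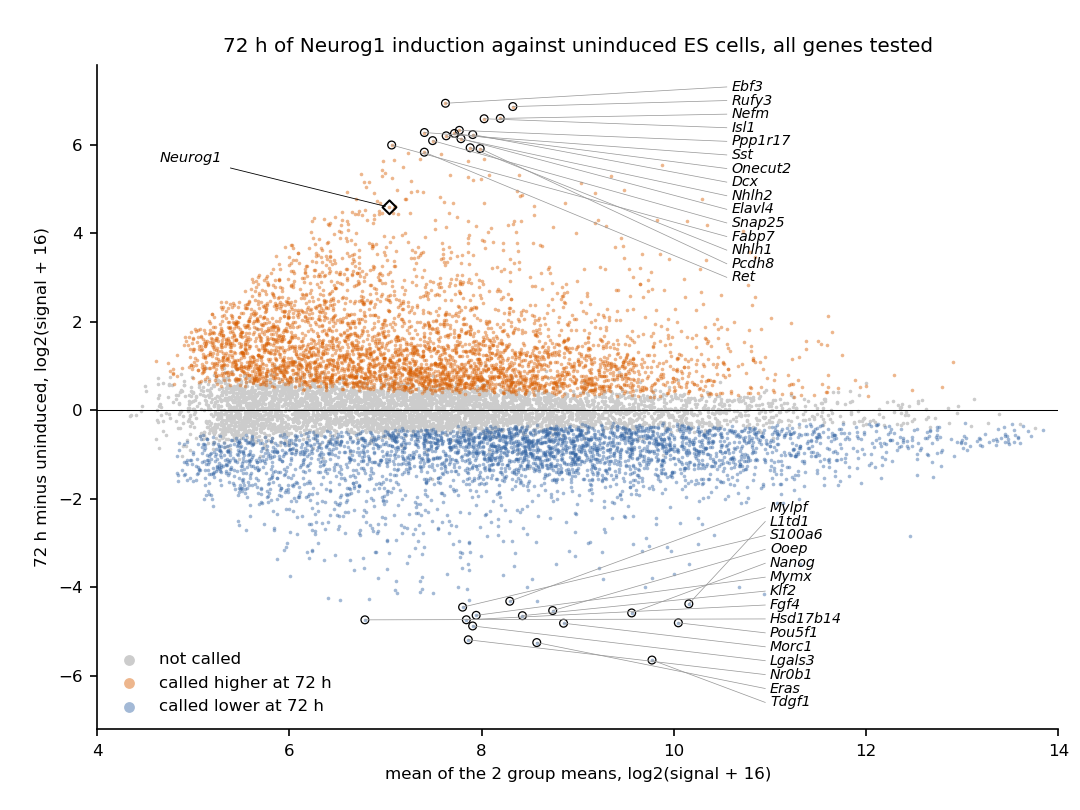
Difference between 72 h and uninduced cells (vertical axis, log2(signal + 16)) against the mean level of both groups (horizontal axis, same scale) for the 11810 genes tested. Orange points were called higher, blue points lower and grey points neither. Circles name the 15 largest rises, from Ebf3 (6.93) to Ret (5.83), and the 15 largest falls, from Tdgf1 (−5.64) to Mylpf (−4.31), and a diamond marks Neurog1 (4.58).

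The 15 largest rises were genes of neuronal differentiation for the most part. Ebf3, a helix-loop-helix factor of migrating and differentiating neurons, had signals of 1.72, 1.98 and 1.85 in uninduced cells and 1888, 2251 and 2377 at 72 h, a difference of 6.93 ± 0.17 (adjusted p = 1.26e-10). Rufy3, which acts in axon specification, went from 39.3, 12.6 and 0.655 to 3782, 3419 and 3136 (6.86 ± 0.36). All induced arrays of both genes lay far above all uninduced ones. Onecut2, a homeodomain factor of early neurons, read 12.2, 7.18 and 5.50 in uninduced cells against 2013, 2089 and 1430 (6.25 ± 0.19). Ppp1r17, a protein phosphatase inhibitor, rose by 6.32 ± 0.20, and Pcdh8, a protocadherin, by 5.91 ± 0.33, with signals of 2696, 2262 and 1206 at 72 h. The remaining 10 were Nefm, Isl1, Sst, Dcx, Nhlh2, Elavl4, Snap25, Fabp7, Nhlh1 and Ret, between 5.83 and 6.59, and are described with their groups. Since most of these genes were at the floor before induction, the size of their difference and their order depend on the added constant. Both also depend on the choice of probe set. With all probe sets of a gene averaged, the difference was 3.455 for Rufy3, 3.86 for Snap25, 4.735 for Dcx and 4.28 for Ret. It stayed at 6.51 for Ebf3 and 6.59 for Nefm.

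Of 22 proneural and neurogenic factors tested, 21 rose, 0 fell, and their median difference was 4.14, against 0.09 over all genes. Only 6 of the 22 passed the filter in uninduced cells, of which 5 rose, and the other 16 passed through induced arrays. A further 7 members were too dim to test, among them Neurog2, at 4.18, 1.05 and 2.37 in uninduced cells and 23.7, 16.2 and 6.54 at 72 h. Nhlh1 and Nhlh2 are small helix-loop-helix factors expressed as precursors become neurons. Nhlh1 went from 11.2, 11.6 and 20.8 to 2054, 2053 and 1432 (5.93 ± 0.22), and Nhlh2 from 1.24, 0.407 and 27.8 to 1491, 1579 and 2016 (6.20 ± 0.32). Neither pair of groups overlapped. The Ebf paralogues followed Ebf3: Ebf2 rose by 5.34 ± 0.42 and Ebf1 by 5.17 ± 0.29. Ebf2 was uneven at 72 h, with 1034 and 1052 on replicates 1 and 2 and 267 on replicate 3. Neurod4, a Neurod family factor, reached 743, 633 and 518 from 7.28, 4.84 and 4.53 (4.90 ± 0.18), below its 48 h signals of 808, 1106 and 992. Neurod1, which sustains the neuronal programme after neurogenins, was already detectable before induction, with 75.2, 389 and 356, and stood at 2534, 3024 and 2712 (3.53 ± 0.42). Insm1, a zinc-finger factor of newborn neurons and endocrine cells, rose by 4.68 ± 0.37, to 1587, 1517 and 919, and had been at 3491, 2033 and 988 at 24 h.

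To show the DNA at the start of genes that rose together, promoters of 300 bases (250 before and 50 after the transcript start) were searched for the E-box letters CAGATG, its reverse complement CATCTG, and CATATG, which is its own reverse complement; these 3 words cover both strands, and matches of them cannot overlap. The letters are those that Neurog family factors are known to bind, and the sequences and coordinates are from RefSeq on assembly GRCm38.p6. Among 147 genes open to naming that rose, 106 had a promoter in that table. Promoters on 1 chromosome were left out of the ranking. Among the rest the 3 below come first by number of matches, with ties broken by the larger rise, and capitals mark the matches. Slc17a6, the vesicular glutamate transporter 2, lies on the plus strand (chr7:51624387-51624686) and has 1 CAGATG and 1 CATATG. Nhlh2 (chr3:102009895-102010194, plus strand) and Elavl4 (chr4:110286785-110287084, minus strand) have 1 match each.
Slc17a6: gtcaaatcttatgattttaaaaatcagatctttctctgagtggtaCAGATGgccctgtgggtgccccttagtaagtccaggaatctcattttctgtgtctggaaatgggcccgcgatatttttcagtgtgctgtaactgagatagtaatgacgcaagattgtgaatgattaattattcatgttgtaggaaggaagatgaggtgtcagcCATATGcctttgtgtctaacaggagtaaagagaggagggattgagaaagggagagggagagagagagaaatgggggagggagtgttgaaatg
Nhlh2: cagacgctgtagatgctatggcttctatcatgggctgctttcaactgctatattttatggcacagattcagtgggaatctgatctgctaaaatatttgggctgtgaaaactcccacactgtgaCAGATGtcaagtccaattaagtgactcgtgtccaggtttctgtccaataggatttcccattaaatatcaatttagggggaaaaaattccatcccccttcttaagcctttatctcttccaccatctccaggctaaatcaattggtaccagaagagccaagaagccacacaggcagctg
Elavl4: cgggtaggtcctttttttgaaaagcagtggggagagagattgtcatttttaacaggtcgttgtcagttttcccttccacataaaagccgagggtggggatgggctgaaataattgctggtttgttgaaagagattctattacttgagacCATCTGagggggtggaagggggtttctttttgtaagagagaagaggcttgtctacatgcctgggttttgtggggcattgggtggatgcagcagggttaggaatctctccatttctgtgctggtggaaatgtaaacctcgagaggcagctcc
The letters are common. They occur in 20.3% of the 32851 promoters of the table and in 12.9% of the 12291 promoters of genes tested. Among genes that rose by 1 or more 14.4% of 2706 promoters had a match, and among genes that fell by 1 or more 12.6% of 1504 did. For the 15 largest rises, 6 of 15 promoters (4 of 10 genes with a promoter in the table) had a match, and for the 15 largest falls 0 of 14. A match is a description of letters, not of binding.

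Genes of sensory neurons and of the placodes that form cranial ganglia rose in 18 of 21 tested, with 0 lower and a median of 2.45; 15 passed the filter through induced arrays alone, and of the other 6, 4 rose. A further 9 were not tested. Isl1, a LIM-homeodomain factor of sensory and motor neurons, had signals of 8.84, 15.3 and 8.27 before induction and 2588, 2630 and 2391 after 72 h (6.58 ± 0.21). Pou4f1 (Brn3a), a POU factor that directs sensory neuron identity, moved from 12.4, 24 and 38.8 to 1485, 1656 and 1207 (5.20 ± 0.24). The 3 induced arrays of each gene lay close together and far above the uninduced arrays. Receptors through which ganglion neurons sense growth factors moved to different degrees. Ret, the signalling receptor of the GDNF family, reached 1519, 1415 and 929 from 0.826, 21 and 2.24 (5.83 ± 0.32). The neurotrophin receptors rose less on this scale: Ntrk3 (TrkC) stood at 219, 218 and 203 against 1.81, 5.14 and 28.7 (3.16 ± 0.32), and Ntrk2 (TrkB) at 170, 158 and 234 against 52.4, 63.3 and 47.3 (1.52 ± 0.20). P2rx3, an ATP-gated channel of nociceptors, reached 735, 703 and 1325 (4.96 ± 0.28). Trpv1 and Scn10a, further channels of such neurons, were below the filter and were chosen after their values were seen. At 72 h Trpv1 read 13.9, 2.41 and 4.80, and Scn10a 5.90, 5.03 and 0.464. Prph, a neurofilament-related protein of peripheral neurons, rose by 1.71 ± 0.26 to only 114, 110 and 116.

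Factors that pattern the neural tube rose in 12 of 16 tested (0 lower, median 2.89), while 18 members were too dim to test. All but 3 of the 16 passed through induced arrays alone, and 1 of those 3 rose. Irx3 and Irx5, Iroquois homeodomain factors, rose by 4.80 ± 0.22 and 4.00 ± 0.25, and Irx3 reached 1011, 1018 and 929 from 9.49, 19.4 and 35.1. Lhx2, a LIM-homeodomain factor of the forebrain and dorsal interneurons, rose by 4.34 ± 0.39, with 496 and 459 on replicates 1 and 2 and 152 on replicate 3. Pax3, a dorsal neural tube and crest factor, read 1.28, 4.06 and 0.342 in uninduced cells and 185, 194 and 296 at 72 h (3.73 ± 0.23).

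Hox genes, which mark position along the hindbrain and spinal cord, split the 72 h arrays. Of 9 tested, 8 rose (0 lower). Of these 9, 0 passed the filter in uninduced cells, so the count is no more than a description. A further 15 did not exceed the array median on all 3 arrays of any group and were not tested. Some of the 15 were bright on 72 h replicate 3. Hoxb5 and Hoxb6, chosen after their values were seen, read 18.0, 23.4 and 1141, and 18.7, 19.7 and 1175. Hoxb4 had signals of 1.64, 6.79 and 1.36 in uninduced cells and 82.1, 53.6 and 627 at 72 h, so that replicate 3 stood far above the other two. Hoxb2 showed the same order, with 211, 183 and 1127 against 5.29, 2.15 and 4.10 (4.23 ± 0.55). Hoxa5 (55.3, 58 and 463) and Hoxb3 (80.7, 76.3 and 510) did so as well. The mean over the 9 genes, relative to uninduced cells, was 1.82, 1.72 and 3.36 on replicates 1 to 3 at 72 h, and 1.85, 1.73 and 2.79 at 48 h. In 8 of the 9 genes replicate 3 was the highest of the 72 h arrays. All 3 induced arrays of Hoxb2, Hoxb4, Hoxa5 and Hoxb3 were nevertheless above all uninduced ones.

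**Figure D2:**
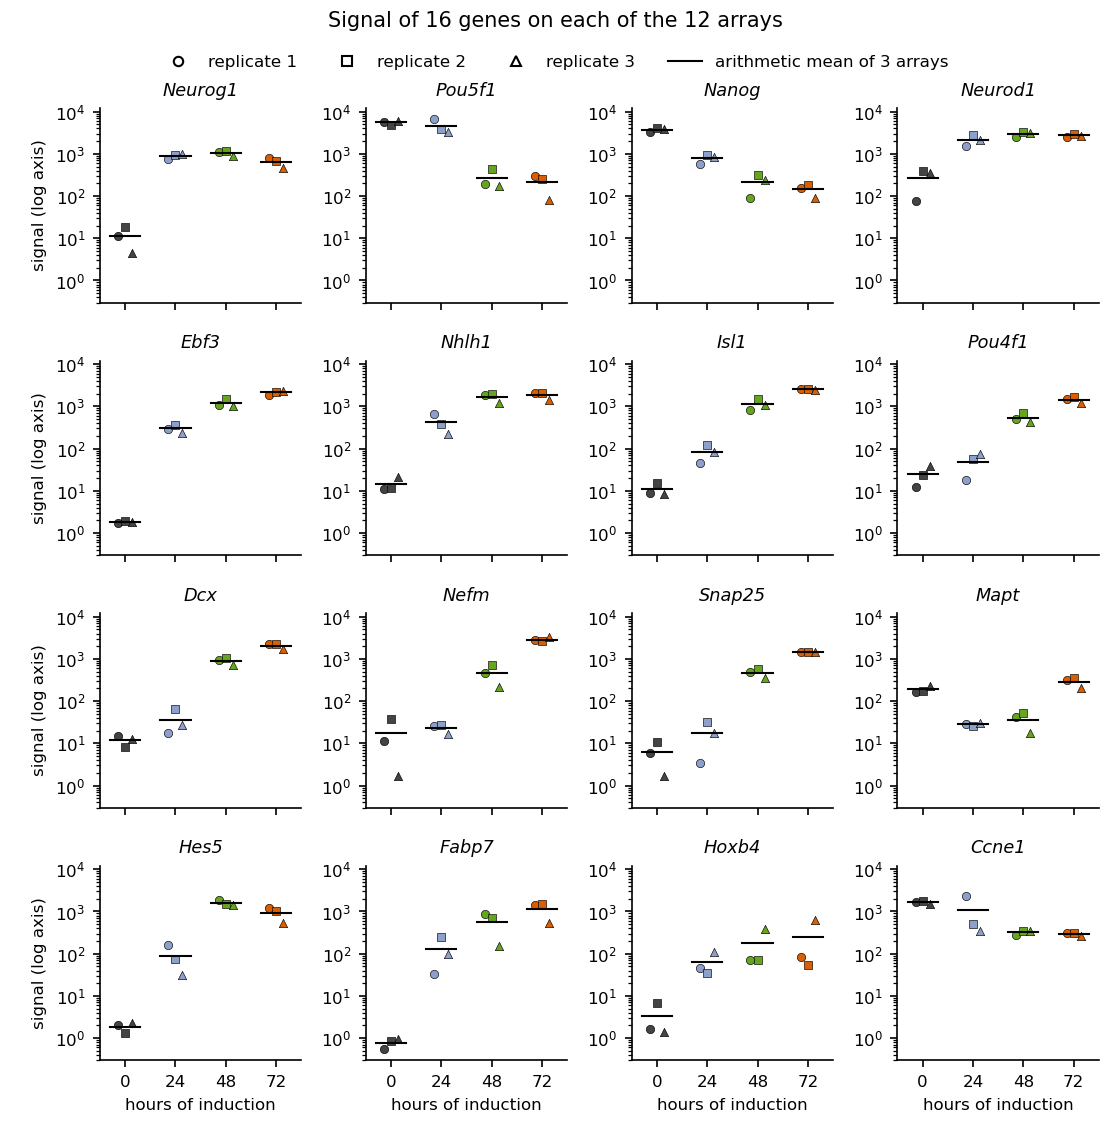
Deposited signal (vertical log axis) of 16 genes on each of the 12 arrays, by hours of induction, with a marker for each replicate number and a line at the arithmetic mean of the 3 arrays. Ebf3 and Dcx rise from the floor to 1754 or more on every 72 h array, Pou5f1 and Nanog fall, Mapt dips at 24 h and 48 h, and Hoxb4 is higher on replicate 3 than on the other arrays at each induced time.

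The neuronal cytoskeleton rose in 31 of 35 genes tested, with 1 lower and a median of 3.09; of the 26 that passed the filter in uninduced cells 22 rose and 1 fell. Nefm, the medium neurofilament chain, had signals of 11.6, 38.5 and 1.65 before induction and 2762, 2612 and 3231 after it (6.59 ± 0.41). Nefl, the light chain, rose from 243, 231 and 200 to 5650, 5975 and 8139 (4.76 ± 0.25). Nefh, the heavy chain that accumulates in mature axons, went the other way, from 226, 286 and 271 to 154, 166 and 74.1 (−0.97 ± 0.27, adjusted p = 0.00706). The neurofilament chains were thus in different directions, with no overlap between groups for any of the 3. Dcx (doublecortin), a microtubule-binding protein of migrating neurons, moved from 15, 8.27 and 12.4 to 2238, 2224 and 1754 (6.22 ± 0.18). Map2, of dendrites, rose by 5.30 ± 0.14, and Stmn4, a stathmin, by 5.14 ± 0.27. Tubb3, the neuronal beta-tubulin, was at 504, 335 and 332 before induction and 3910, 4059 and 4476 after (3.38 ± 0.16).

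Some neuronal cytoskeleton genes were expressed in ES cells before induction. Stmn2, a stathmin of growing axons, was at 3222, 3649 and 3264 in uninduced cells and 4566, 5079 and 5237 at 72 h, a rise of 0.55 ± 0.17 (adjusted p = 0.0139). That call ended under median centring (adjusted p = 0.193) and in the fit of 12 arrays (0.133). Mapt (tau), the axonal microtubule-associated protein, was at 165, 173 and 235 in uninduced cells and 317, 353 and 203 at 72 h, and the groups overlapped (0.55 ± 0.28, adjusted p = 0.106). Without 72 h replicate 3 the adjusted p of Mapt was 0.0313, and over the fits tried it ran from 0.00156 to 0.402. Between those times Mapt was lower, at 28.9, 26.5 and 30.9 after 24 h and 41.2, 51.5 and 17.3 after 48 h.

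RNA-binding and splicing regulators of neurons rose in 18 of 18 tested (median 2.34), 11 of which passed the filter in uninduced cells. Elavl4 (HuD), which stabilises neuronal mRNAs, went from 17, 16 and 1.26 to 1808, 1958 and 1732 (6.13 ± 0.26). Its relative Elavl3 (HuC) rose by 3.89 ± 0.20. Srrm4, a splicing factor of neural microexons, reached 328, 276 and 215 (3.66 ± 0.30), and Rbfox1 reached 219, 153 and 302 from 4.28, 2.92 and 4.63 (3.55 ± 0.30). Rbfox3 (NeuN), the nuclear antigen of postmitotic neurons, stood at 661, 627 and 340 against 30, 25 and 44.6 (3.47 ± 0.31). The polypyrimidine tract-binding proteins moved in opposite directions. Ptbp2, the neuronal form, rose from 543, 585 and 288 to 2242, 2319 and 2220 (2.28 ± 0.21), and Ptbp1, the form of non-neuronal cells, fell from 4606, 3989 and 3296 to 1905, 1836 and 1979 (−1.04 ± 0.15). Rest, the repressor that keeps neuronal genes silent outside neurons, fell from 1234, 1273 and 1346 to 165, 166 and 204 (−2.75 ± 0.18, adjusted p = 1.39e-07). A host transcript of the neuronal microRNA miR-124, Mir124-2hg, chosen after its values were seen, was at 3.96, 0.306 and 1.27 in uninduced cells and 141, 122 and 134 at 72 h (3.06 ± 0.20).

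Synaptic genes rose in 31 of 36 tested (0 lower, median 1.84), and 8 were too dim to test; of 18 that passed the filter in uninduced cells 15 rose. Snap25, a SNARE protein of vesicle fusion, read 5.79, 10.9 and 1.67 in uninduced cells and 1440, 1475 and 1484 at 72 h (6.09 ± 0.20). Pclo (piccolo), a scaffold of the active zone, reached 537, 500 and 409 (4.29 ± 0.21), and the synaptotagmins Syt13 and Syt11 rose by 4.22 ± 0.29 and 3.51 ± 0.27. Syt1, the calcium sensor of fast release, stood at 345, 361 and 335 against 15.3, 26.3 and 26.3 (3.24 ± 0.20).

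Peptide and transmitter genes were mixed. Of 16 neuropeptide and granin genes tested, 11 rose and 3 fell (median 2.67); of the 6 that passed the filter in uninduced cells 2 rose and 3 fell. Sst (somatostatin) rose from 3.24, 3.02 and 3.57 to 906, 859 and 4070 (6.27 ± 0.48), with replicate 3 the highest. The secretory granule proteins Scg3 and Chgb rose by 5.81 ± 0.22 and 5.65 ± 0.24, and Cpe, which trims prohormones, went from 61.5, 185 and 118 to 4080, 3921 and 3989 (4.97 ± 0.26). Trh, the thyrotropin-releasing hormone precursor, fell from 826, 963 and 531 to 90.2, 70.6 and 13.2 (−3.57 ± 0.40), and Penk, the enkephalin precursor, fell by 1.21 to 19.3, 20.1 and 8.26. Pcsk1n, a proconvertase inhibitor, fell by 1.09 (adjusted p = 0.0163), a call that ended without uninduced replicate 1 (0.0748) or 2 (0.0512), without 72 h replicate 3 (0.0624) and in the fit of 12 arrays (0.110).

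Of 7 tested genes of transmitter synthesis and transport, 2 rose and 2 fell, and 13 were too dim to test. Only 2 of the 7 passed the filter in uninduced cells, of which 0 rose and 2 fell. Slc17a6, which loads glutamate into vesicles, reached 87.7, 82.9 and 42.1 from 7.03, 1.85 and 20.6 (1.77 ± 0.33), a low signal on every array. Slc18a2, the vesicular monoamine transporter, rose more, from 10.4, 10.4 and 0.689 to 330, 302 and 1038 (4.43 ± 0.40). Ddc, the aromatic amino acid decarboxylase, fell from 532, 679 and 720 to 56.4, 71.8 and 75 (−2.97 ± 0.26), and Maoa, a monoamine oxidase, fell by 0.92, a call that ended when all probe sets of the gene were averaged (adjusted p = 0.174). Gad1, of GABA synthesis, was below the filter, at 14.7, 18.9 and 16.9 in uninduced cells and 11.7, 14.7 and 15.4 at 72 h.

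Neurotransmitter receptor genes rose in 14 of 18 tested (0 lower, median 1.58), with 23 too dim to test; 5 passed the filter in uninduced cells, and 3 of these rose. The 4 largest rises were subunits of nicotinic acetylcholine receptors, which form the fast synaptic receptors of peripheral ganglia. Chrna3 went from 16.4, 9.17 and 10.7 to 526, 523 and 2095 (4.93 ± 0.45), and Chrna5 from 22.5, 8.26 and 18.3 to 267, 251 and 548 (3.46 ± 0.33). Replicate 3 was the highest for both. Chrnb2 rose by 3.03 ± 0.33 and Chrnb4 by 2.47 ± 0.23. Ion channel genes rose in 19 of 24 tested (1 lower, median 1.51), and in 3 of the 7 that passed the filter in uninduced cells, with 1 lower. Cacna2d1 and Cacna2d3, calcium channel auxiliary subunits, rose by 4.60 ± 0.28 and 2.43 ± 0.25, Cacna1b, of N-type channels, by 3.33 ± 0.27, and Scn3a, an embryonic sodium channel, by 3.05 ± 0.29. Kcnk1, a potassium leak channel, fell from 264, 268 and 111 to 57.8, 60.3 and 75.3 (−1.43 ± 0.27).

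Axon guidance and neural adhesion genes rose in 40 of 48 tested (0 lower, median 2.27), and in 11 of the 17 that passed the filter in uninduced cells. Dcc, the netrin receptor, read 6.27, 6.8 and 4.29 before and 969, 1144 and 469 after induction (5.24 ± 0.31) on its brightest probe set, while another of its probe sets moved the other way. Cntn1, a contactin, rose by 4.78 ± 0.30 to 766, 769 and 746, Sema6d, a semaphorin, by 4.46 ± 0.18, and Alcam, an adhesion protein of axons, by 4.17 ± 0.25. L1cam, which guides axon growth, stood at 696, 677 and 709 against 36.4, 44.4 and 51 (3.57 ± 0.21).

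Notch signalling lets differentiating cells hold back their neighbours: Delta ligands on one cell activate receptors on the next, where Rbpj switches on Hes genes. Of 31 pathway genes tested, 18 rose, 1 fell and the median was 0.84; of 24 that passed the filter in uninduced cells 13 rose. Among ligands, Dll1 stood at 420, 469 and 317 at 72 h against 54.2, 85.8 and 98.2 (2.14 ± 0.24), and Dll3, a ligand-like protein that acts within the cell, at 933, 1178 and 343 against 119, 89 and 90.5 (2.69 ± 0.37). Both were lower than at 24 h, when Dll1 read 1793, 1140 and 872 and Dll3 3366, 1705 and 1141. Dner, a Delta-related receptor of neurons, rose by 3.96 ± 0.24, and Dtx4, a Deltex ubiquitin ligase, by 3.17 ± 0.38. The effectors differed. Hes5 went from 2.00, 1.36 and 2.25 to 1191, 1040 and 532 (5.63 ± 0.25). Hes1 was at 77.7, 166 and 149 and then 120, 116 and 181, with overlapping groups (0.11 ± 0.25, adjusted p = 0.717). Rbpj itself fell by 0.45 (adjusted p = 0.0190), a call that ended without 72 h replicate 3 (0.0726), after quantile normalization (0.135) and in the fit of 12 arrays (0.258).

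Id proteins bind E-proteins and so keep proneural factors from pairing with them. Of 20 Id, E-protein and BMP genes tested, 11 rose and 4 fell (median 0.93), and the Id family was divided. Id4 rose from 32.1, 93.4 and 48 to 1195, 1338 and 552 (3.81 ± 0.38), and Id2 from 761, 395 and 275 to 1541, 1756 and 1165 (1.71 ± 0.29). Id1 was at 779, 403 and 891 and then 221, 387 and 796, with overlap (−0.65 ± 0.42, adjusted p = 0.198); without 72 h replicate 3 the adjusted p was 0.0197. Id3 spread widely at 72 h, at 291, 338 and 1540 (0.88 ± 0.61, adjusted p = 0.228). The E-proteins Tcf12 and Tcf4, the pairing partners of Neurog1, rose by 2.84 ± 0.18 and 2.06 ± 0.19. Smad1, which carries the BMP signal, rose by 2.33 ± 0.21, whereas the ligand Bmp4 fell from 608, 676 and 631 to 120, 119 and 65 (−2.52 ± 0.31) and the inhibitor Smad7 fell by 2.04.

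Genes of neural progenitors and radial glia rose in 15 of 21 tested (2 lower, median 1.99), and in 5 of the 10 that passed the filter in uninduced cells. Fabp7, a fatty acid-binding protein of radial glia, went from 0.552, 0.854 and 0.956 to 1420, 1492 and 543 (5.99 ± 0.52). Ednrb, the endothelin B receptor, went from 10.5, 0.611 and 1.62 to 323, 336 and 1305 (4.77 ± 0.50). Replicate 3 was the lowest for Fabp7 and the highest for Ednrb. Sox3 rose by 3.51 ± 0.34 and Nes (nestin) by 1.89 ± 0.38, the latter to 98.6, 110 and 122. Sox2, shared by ES cells and neural progenitors, fell from 4906, 4745 and 4102 to 2081, 1918 and 2425 (−1.10 ± 0.12). Slc1a3, a glial glutamate transporter, fell by 1.27 to 1.81, 6.41 and 8.04. The summed signal of 7 radial glia and progenitor markers was 2158 to 3415 at 72 h against 95.9 to 205. Fabp7 and Hes5 were large parts of the 72 h sum. Of the 7, 5 exceeded the array median on all 3 arrays at 72 h and 2 did so in uninduced cells.

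Lists of other cell types held members that changed. Of 5 astrocyte and oligodendrocyte genes tested 3 rose and 1 fell, and 10 were too dim to test. Only 2 of the 5 passed the filter in uninduced cells, of which 0 rose and 1 fell. Gfap, of astrocytes, and Sox10, of oligodendrocytes and crest, were below the filter, with Gfap at 17.9, 14 and 8.24 and Sox10 at 38, 20.5 and 19.6 at 72 h. Olig2 stood at 318 and 360 on replicates 1 and 2 and at 19.5 on replicate 3 (2.95 ± 0.83). Slc1a2, a glutamate transporter, and Mbp, whose locus also makes non-myelin transcripts, rose by 4.53 ± 0.20 and 2.51 ± 0.38. Aldh1l1, of astrocytes, fell from 58.4, 52.2 and 109 to 38.7, 30 and 20.2 (−0.94 ± 0.27, adjusted p = 0.00859), a call that ended with all probe sets averaged (0.150), in the fit of 12 arrays (0.0604) and without the arrays numbered 3 (0.0789). The summed signal of 7 astrocyte and oligodendrocyte markers was 178 to 469 at 72 h against 152 to 182. Only Mbp of these exceeded the array median on all 3 arrays at 72 h. Of 13 neural crest genes tested 7 rose and 3 fell: Pax3 and Zic1 rose (by 3.73 ± 0.23 and 3.49 ± 0.36), and Mitf, Erbb3 and Foxd3 fell by 2.43, 2.25 and 2.13. Only 5 of the 13 passed the filter in uninduced cells, of which 2 rose and 3 fell. Of 9 endoderm genes 5 rose (0 lower), led by Foxa2, also a floor plate gene, at 83.3, 88.6 and 70.6 against 3.81, 3.03 and 9.32 (2.19 ± 0.22). Without single arrays that count ran from 3 to 6. Only 3 of the 9 endoderm genes passed the filter in uninduced cells, of which 1 rose. Sox17, of endoderm, was at 45.1, 25.9 and 219 (1.62 ± 0.54, adjusted p = 0.0209), and its call ended without uninduced replicate 1 (0.0508) or 2 (0.0563) or 72 h replicate 3 (0.0670) and under median centring (0.0533). The summed signal of 7 endoderm markers was 203 to 545 at 72 h against 81.3 to 194, and only Foxa2 exceeded the array median on all 3 arrays at 72 h. Of 9 mesoderm, muscle and vessel genes tested 4 rose and 2 fell. Of the 5 that passed the filter in uninduced cells 3 rose and 2 fell. The summed signal of 9 markers was 935 to 1432 at 72 h against 330.2 to 834, and Acta2 alone made up most of it at 72 h. Other marker sums overlapped between the groups. They were 72.4 to 316 against 112 to 159 for fibroblasts or feeders and 44.0 to 75.7 against 68.3 to 112 for mesendoderm. For trophoblast they were 106 to 114 against 47.6 to 111, and for neural crest 415 to 521 against 421 to 538. Acta2, a smooth muscle actin also found in other cells, was at 1287, 1169 and 818 against 112, 618 and 80.7 (2.45 ± 0.71), while Myod1, of skeletal muscle, Cdx2, of trophoblast, Gata4, of endoderm, and Col1a1, of fibroblasts, were below the filter on these arrays. The share of these cells in the results was not tested.

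Naive pluripotency genes fell in 35 of 36 tested (0 higher), with a median of −3.40. Tdgf1 (Cripto), a Nodal co-receptor, fell from 6219, 5560 and 6768 to 217, 215 and 19 (−5.64 ± 0.66, adjusted p = 1.44e-05), and replicate 3 was the lowest. Pou5f1 (Oct4), the central pluripotency factor, fell from 5768, 4936 and 6063 to 294, 257 and 78.7 (−4.80 ± 0.41), and Nanog from 3227, 4042 and 3804 to 156, 183 and 91.6 (−4.58 ± 0.35). The groups of all 3 genes were far apart. Pou5f1 had still been at 6676, 3919 and 3295 after 24 h, when Nanog was already at 589, 950 and 838. Eras, a Ras-like protein of ES cells, and Nr0b1 (Dax1), an orphan nuclear receptor, fell (−5.25 ± 0.35 and −5.19 ± 0.25). Klf2 and Klf4, Krüppel-like factors of naive cells, fell by 4.64 and 4.00, Esrrb by 4.29 and Zfp42 (Rex1) by 4.00. Zfp42 stayed at 468, 474 and 272, well above the array medians. The member that was not called was Lifr, the LIF receptor, at 558, 533 and 572 in uninduced cells and 578, 585 and 607 at 72 h (0.09 ± 0.13, adjusted p = 0.575).

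The other largest falls included ES cell genes outside that list. Fgf4, the FGF ligand that primes ES cells for differentiation, fell from 1277, 1257 and 987 to 58.7, 47.6 and 2.48 (−4.73 ± 0.47). Lgals3, a galectin, and S100a6, a calcium-binding protein, fell (−4.87 ± 0.21 and −4.45 ± 0.37). L1td1, an RNA-binding protein of pluripotent cells, fell from 5349, 4783 and 5419 to 288, 365 and 120 (−4.37 ± 0.38). Hsd17b14, a steroid dehydrogenase, fell by 4.74. The muscle genes Mymx, of myoblast fusion, and Mylpf, a myosin light chain, were also among them: Mymx fell from 597, 1797 and 1642 to 58.5, 38.5 and 13.6 (−4.63 ± 0.51) and Mylpf changed by −4.31 ± 0.17.

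Genes of germ cells and oocytes fell in 12 of 17 tested (0 higher, median −1.02); the count was 8 in the fit of 12 arrays. Morc1, which silences transposons in the male germline, fell from 2740, 2360 and 2224 to 98, 95.9 and 36 (−4.81 ± 0.29). Ooep and Khdc3, of the oocyte's subcortical complex, fell by 4.53 and 4.03, and Tdrd12 by 2.95. Formative and primed pluripotency genes showed no common direction: of 15 tested, 5 rose and 6 fell (median −0.15). Sox3 and Pou3f1 (Oct6), both also neural factors, rose by 3.51 ± 0.34 and 2.04 ± 0.42, and the ETS factors Etv4 and Etv5 fell by 3.39 and 3.00. Dnmt3b, a de novo DNA methyltransferase, fell by 1.57. Fgf5, the marker of primed epiblast, was at 11, 13.9 and 2.14 and then 14.5, 40.8 and 12.3 (0.58 ± 0.39, adjusted p = 0.212). Otx2 was at 660, 205 and 179 and then 172, 178 and 15 (−1.56 ± 0.68, adjusted p = 0.0646), with adjusted p of 0.0413 and 0.0352 without 72 h replicate 1 or 2, 0.0316 after quantile normalization and 0.0250 under median centring.

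**Figure D3:**
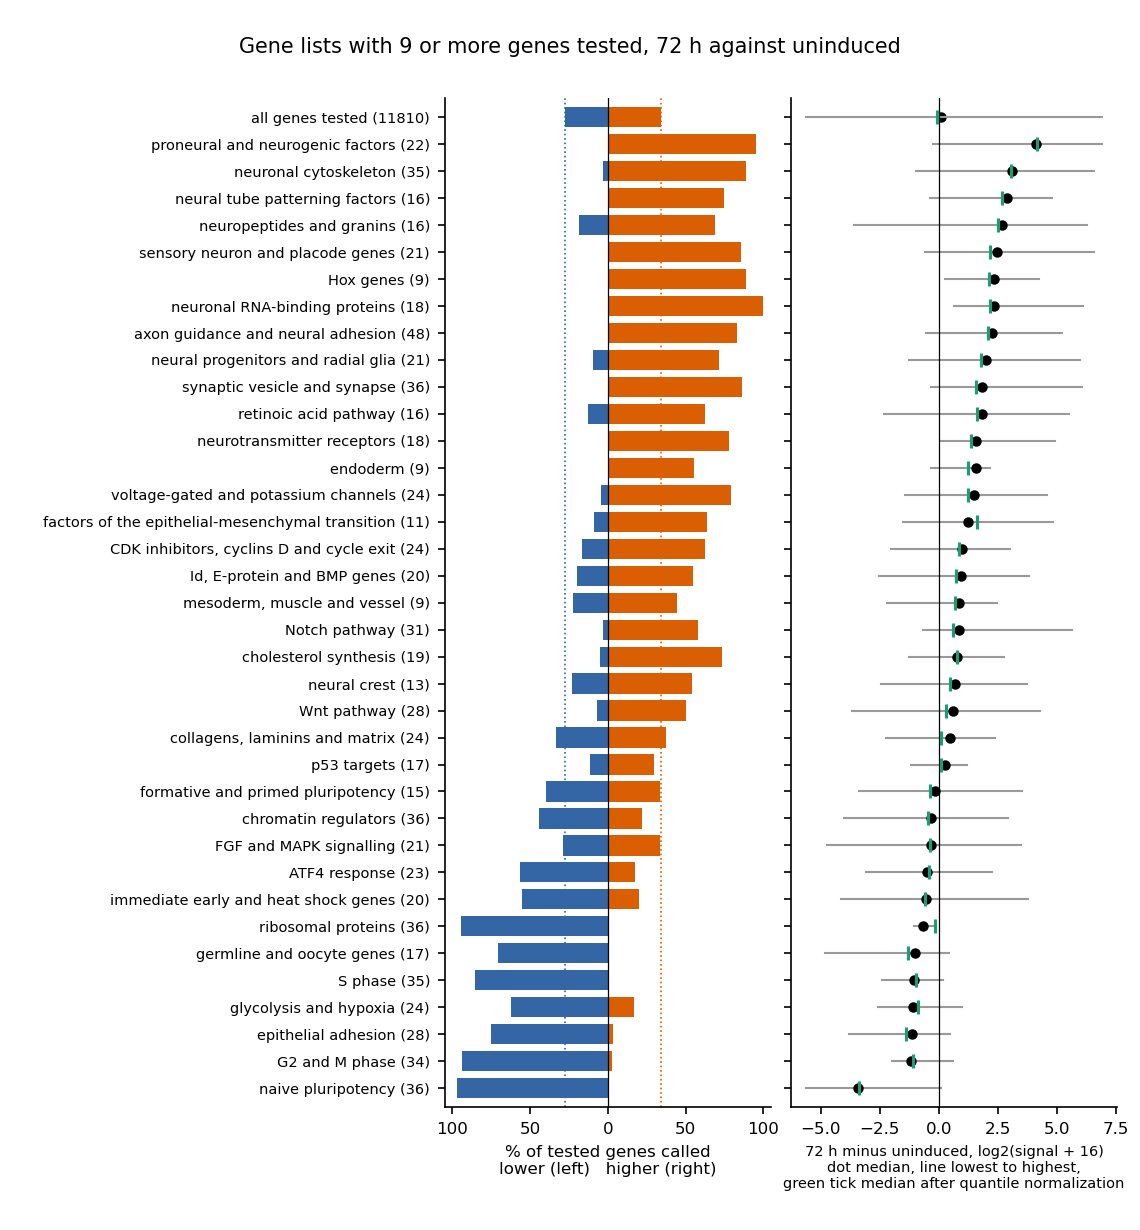
Left, share of each list's tested genes called higher (orange, to the right) or lower (blue, to the left) at 72 h against uninduced cells, for lists with 9 or more genes tested (number in parentheses); dotted lines give the shares over all genes, 34.0% and 27.8%. Right, median difference (dot), lowest to highest member (line) and the median after quantile normalization (green tick). The proneural list, most of whose members passed the filter through induced arrays, has the highest median (4.14) and the naive pluripotency list the lowest (−3.40).

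Proliferation genes were lower at 72 h. Of 35 S phase genes tested 30 fell (0 higher, median −1.04). Ccne1, the cyclin that starts S phase, fell from 1690, 1737 and 1513 to 307, 316 and 268 (−2.41 ± 0.14). Orc1 and Mcm10, of replication origins, fell by 2.14 and 1.81. Of 34 genes of G2 and M phase 32 fell, 1 was called higher and the median was −1.19; in the fit of 12 arrays 20 fell. Birc5 (survivin) fell from 2491, 2276 and 2713 to 417, 602 and 952 (−1.97 ± 0.24), and Bub1b, of the spindle checkpoint, by 1.87. Mki67, the proliferation antigen, was at 791, 764 and 728 against 1294, 1145 and 919, and fell by 0.53 (adjusted p = 0.00543, and 0.569 in the fit of 12 arrays). The exception was Cdc25b, the phosphatase that opens mitosis, at 193, 131 and 209 against 93.9, 132 and 103 (0.61 ± 0.23, adjusted p = 0.0323). Its groups overlapped, and the call ended after quantile normalization (0.360), under median centring (0.246), and without uninduced replicate 1 (0.0998) or 3 (0.0767) or 72 h replicate 1 (0.101) or 3 (0.101).

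A list of CDK inhibitors, D cyclins, Myc family and other genes tied to cycle exit had 15 of 24 tested higher and 4 lower, with a median of 0.99. The CDK inhibitors moved together: Cdkn1c (p57) stood at 2000, 1995 and 1497 against 140, 500 and 339 (2.58 ± 0.33), Cdkn1b (p27) rose by 1.74 ± 0.31, and Cdkn1a (p21) by 0.88 ± 0.24, the last with adjusted p = 0.00724 (0.0604 in the fit of 12 arrays). The D cyclins did not. Ccnd2 rose from 112, 213 and 211 to 738, 842 and 2172 (2.58 ± 0.36). Ccnd3 fell from 1384, 964 and 1042 to 252, 280 and 256 (−2.02 ± 0.17). Ccnd1 was at 709, 797 and 928 and then 1027, 1016 and 606 (0.09 ± 0.19, adjusted p = 0.707), after 2992, 1511 and 1916 at 24 h. The Myc family was also divided: Myc and Mycn fell by 1.93 and 1.48, and Mycl rose from 19.6, 51.1 and 5.52 to 289, 300 and 274 (3.03 ± 0.32).

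Epithelial adhesion genes fell in 21 of 28 tested (1 higher, median −1.15). Cdh1 (E-cadherin) fell from 2491, 2189 and 1849 to 283, 283 and 196 (−3.03 ± 0.22), and Epcam from 1642, 1315 and 1181 to 109, 102 and 48.2 (−3.82 ± 0.24). Esrp1, an epithelial splicing factor, fell by 2.79. Tjp1, of tight junctions, was called higher by 0.40 (adjusted p = 0.0435), and that call ended under 12 alternatives, among them leaving out uninduced replicate 1 (0.172) or 3 (0.0701) or 72 h replicate 1 (0.120) or 2 (0.114). Cdh2 (N-cadherin), the cadherin of neural tissue, took the opposite course to Cdh1, from 37.2, 87.8 and 30.8 to 1862, 1724 and 1916 (4.86 ± 0.24). Among 11 factors of the epithelial-mesenchymal transition 7 rose and 1 fell, with Zeb2 up by 3.18 ± 0.24 and Zeb1 by 2.87 ± 0.19. Only 5 of the 11 passed the filter in uninduced cells, of which 3 rose and 1 fell. Vim (vimentin) rose from 2162, 2213 and 2291 to 4883, 4436 and 6905 (1.25 ± 0.15). Of 24 collagens, laminins and other matrix genes 9 were higher and 8 lower, shares near those over all genes. Col4a1 and Col4a2, of basement membranes, and Fbn2 (fibrillin 2) rose by 2.15 ± 0.40, 1.95 ± 0.28 and 2.39 ± 0.23, and Nid2, Itga6 and Lama5 fell by 2.25, 1.14 and 1.06.

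Of 28 Wnt genes 14 rose and 2 fell (median 0.59), and 18 of the 28 passed the filter in uninduced cells. Of those 18, 9 rose and 2 fell. Fzd3, the frizzled receptor of axon tracts, went from 43.6, 72.1 and 58.9 to 1643, 1330 and 1285 (4.28 ± 0.17), and Fzd5 the other way, from 561, 722 and 852 to 50.2, 33.9 and 35.6 (−3.69 ± 0.22). Sfrp2, a secreted Wnt modulator, rose by 3.72 ± 0.24. Tcf7l1 (Tcf3), the repressor at Wnt targets in ES cells, fell by 0.98, a call that ended when all its probe sets were averaged (adjusted p = 0.0629). Of 21 FGF and MAPK genes 7 rose and 6 fell (median −0.34), shares near those over all genes, and the feedback inhibitor Spry4 fell from 512, 430 and 490 to 66.6, 46.1 and 22.5 (−3.08 ± 0.33). Of 16 retinoic acid genes 10 rose and 2 fell (median 1.83). Only 8 of the 16 passed the filter in uninduced cells, of which 3 rose and 2 fell. Crabp1, a retinoic acid-binding protein, went from 97.7, 164 and 114 to 4768, 5945 and 9164 (5.53 ± 0.27), and Crabp2 from 97, 107 and 129 to 1368, 1308 and 4578 (4.01 ± 0.49). Meis2 and Nr2f1 (COUP-TFI), transcription factors known as retinoic acid targets, rose by 5.31 ± 0.14 and 5.30 ± 0.27. The receptors Rarg and Rara fell by 2.33 and 1.13.

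Of 36 chromatin regulators 8 rose and 16 fell (median −0.32). The largest falls beside Rest were Dnmt3l, a cofactor of DNA methylation in ES and germ cells, from 4326, 2720 and 3044 to 241, 286 and 99.9 (−3.99 ± 0.34), Tet1, which oxidises methylcytosine, from 2416, 2446 and 2418 to 305, 267 and 201 (−3.18 ± 0.20), and Eed, of Polycomb repressive complex 2 (−1.67 ± 0.15). Bmi1, of Polycomb repressive complex 1, rose from 141, 209 and 163 to 1314, 1342 and 1500 (2.92 ± 0.15). Smarca2 (Brm) rose by 1.67 ± 0.20, and Actl6b (BAF53b), the neuron-specific subunit of the BAF complex, reached 54.8, 59 and 38.9 from 2.21, 5.81 and 20 (1.45 ± 0.33). Lin28a, a fetal RNA-binding protein that blocks let-7 maturation, was at 1995, 1955 and 1503 against 1622, 1613 and 1561 (0.17 ± 0.14, adjusted p = 0.308).

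Housekeeping and stress lists were examined beside these. Of 36 ribosomal protein genes 34 fell (median −0.65), led by Rps25 (by 1.05) and Rpl19 (by 0.89), but after quantile normalization 12 were lower and 1 higher, with a median of −0.17, so the size of the fall and the count depend on the scaling. Of 24 genes of glycolysis and hypoxia 15 fell and 4 rose (median −1.07); Hk2, which starts glycolysis, fell from 2459, 2130 and 1976 to 383, 310 and 375 (−2.57 ± 0.14), and Pfkp by 2.43, whereas Hif1a was 0.58 ± 0.14 higher, a call that ended under median centring (adjusted p = 0.0965) and in the fit of 12 arrays (0.336). Of 19 cholesterol synthesis genes 14 rose and 1 fell (median 0.78), and 9 rose under median centring. Hsd17b7 went from 96.8, 81.6 and 64 to 624, 595 and 712 (2.78 ± 0.17), Tm7sf2 rose by 2.63 ± 0.16, Hmgcs1 by 1.56 ± 0.14, and Ebp fell by 1.27. Of 23 genes of the ATF4 response, which adapts cells to amino acid shortage and other stress, 13 fell and 4 rose (median −0.50; 8 fell in the fit of 12 arrays); Slc7a3, an arginine transporter, fell by 3.06 and Vldlr rose by 2.24 ± 0.23. Of 17 p53 targets 5 rose and 2 fell, with a median of 0.24 that was −0.05 under median centring. Of 20 immediate early and heat shock genes 11 fell and 4 rose (median −0.55): Hspb1, a small heat shock protein, fell from 8097, 7355 and 9446 to 403, 484 and 461 (−4.16 ± 0.26), Nr4a1 fell by 2.94, and Jun rose from 33.6, 98.9 and 75 to 931, 862 and 1611 (3.78 ± 0.29).

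**Figure D4:**
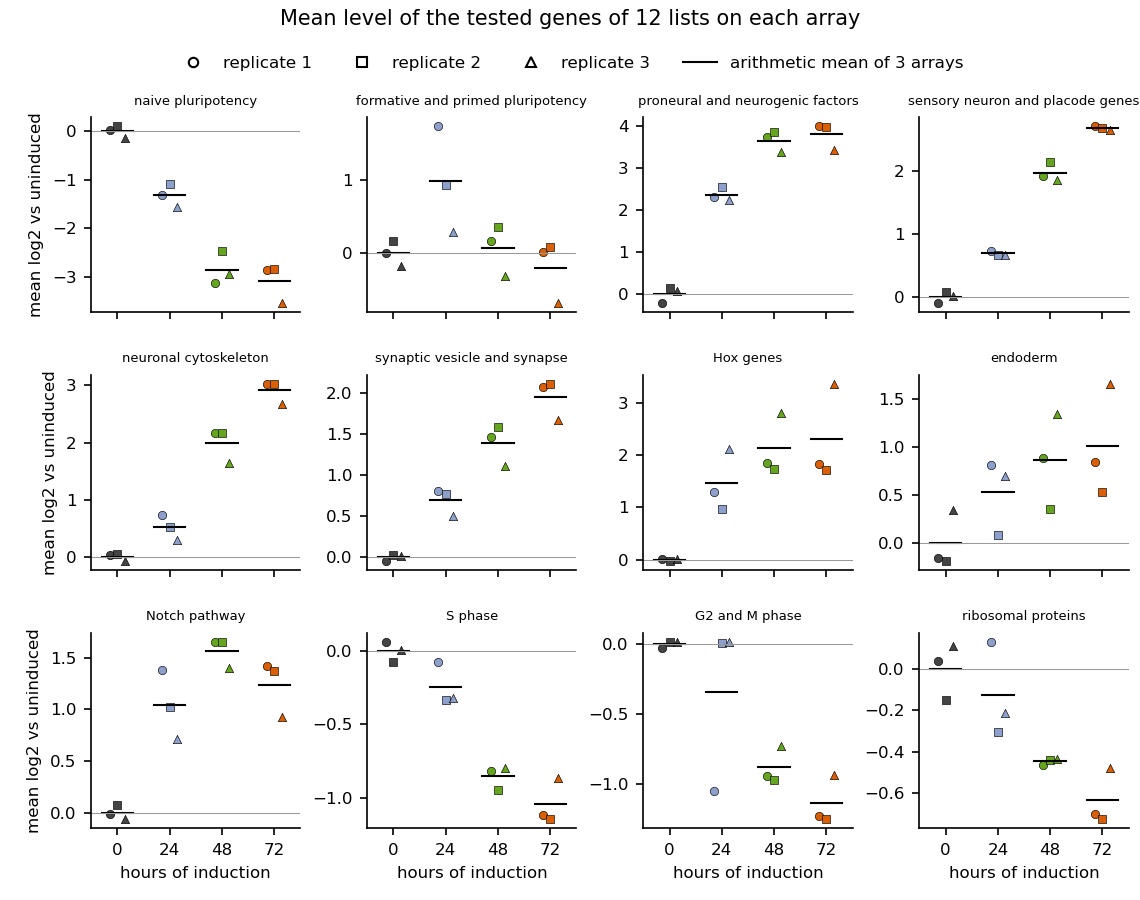
Mean log2(signal + 16) of each list's tested genes on each of the 12 arrays, relative to the mean of the uninduced arrays (vertical axis, a range of its own in each panel), by hours of induction, with a marker for each replicate number. Naive pluripotency lies between −2.84 and −3.54 on the 72 h arrays, and Hox genes are higher on replicate 3 (3.36) than on replicates 1 and 2.

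To place 72 h on its path, the values at the earlier times were set beside it; all comparisons with uninduced cells share the same 3 control arrays. The proneural list's mean was 4.01, 3.97 and 3.45 at 72 h and 3.74, 3.86 and 3.39 at 48 h, and the naive list's was −2.85, −2.84 and −3.54 and then −3.13, −2.47 and −2.94 at the same times. The cytoskeleton list's mean went from 2.17, 2.17 and 1.65 at 48 h to 3.03, 3.03 and 2.68.

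The test of 72 h against 48 h called 424 of 11810 genes (3.59%), 260 higher (2.20%) and 164 lower (1.39%), and 2001 had an unadjusted p under 0.05. The count depended on the settings: it was 95 in the fit of 12 arrays, 2278 with array weights, and 128 and 150 without 72 h replicate 1 or 2. Without 48 h replicate 1, 2 or 3 it was 201, 214 and 148. With the replicate number as a block it was 805, 437 higher and 368 lower, and included all 424. The 424 calls and the differences below are from the main fit, which held no pairing. Of the 35 cytoskeleton genes 15 rose over this day and 0 fell, as did 8 and 0 of the 21 sensory genes; with the block these were 18 and 0, and 8 and 0. Nefm rose by 2.73 ± 0.41 and Nefl by 2.52 ± 0.25 from their 48 h signals of 472, 702 and 216, and 1307, 1541 and 694. Mapt rose by 2.57 ± 0.28, L1cam by 2.55 ± 0.21, Sncg (gamma-synuclein), of peripheral neurons, by 2.60 ± 0.26, and Ppp1r1c, a phosphatase inhibitor, by 2.64 ± 0.29. All but Nefm of these 6 genes were called in 23 of 23 alternative fits, and Nefm in 22. The largest falls were Tff3 (trefoil factor 3), from 310, 519 and 687 to 120, 123 and 43.7 (−2.26 ± 0.42), Pdlim4 (−2.16 ± 0.36), Gal, the neuropeptide galanin, from 961, 754 and 1347 to 179, 192 and 281 (−2.14 ± 0.26), Myh7b (−2.07 ± 0.25), Pcolce (−1.96 ± 0.21) and Mfap4 (−1.89 ± 0.28). Against uninduced cells Gal, Tff3 and Mfap4 were still higher, by 2.56 ± 0.26, 1.85 ± 0.42 and 2.95 ± 0.28, and Pcolce was lower (−4.30 ± 0.21). Dll3 fell by 1.70 and Id1 by 1.87 over the same day, calls found in 18 and 15 of 23 alternative fits.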

How the data were processed

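Total RNA from 12 samples was hybridised as biotinylated cRNA to Affymetrix arrays, per the labels' protocols. The deposited values are linear signal intensity from MAS5, per the submitters' processing notes; its version and settings were not given in the sources used here. The deposited table holds 45101 probe sets: 64 controls, 34945 with 1 gene symbol, 932 with several and 9160 with none. Each of 18193 genes was represented by its brightest probe set over the 12 arrays. A gene was tested when its signal exceeded the array median on 3 arrays of any group, which left 11810.

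The main analysis was limma 3.58.1 in R 4.3.3 on log2(signal + 16), with an intensity trend, over the 9 arrays of uninduced cells, 48 h and 72 h, with Benjamini-Hochberg adjustment over all genes tested. The 24 h arrays enter neither comparison. They were left out because an earlier analysis of these data had found an array of that group apart, which would set the spread. The code was also run on simulated arrays with known changes in a small share of genes and independent noise. Since these data differ in both respects, that run gives no error rate for the calls here. Array number and signal over background limit the precision; array files give no read depth.

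The genes named are Neurog1, the 15 largest called rises and falls at 72 h and the 6 largest each way between 48 h and 72 h (groups not overlapping), the 4 largest rises and falls of each gene list, members that went the other way, and a set of markers open to naming whatever their values. Genes outside this rule are said to be so. The members and lists were chosen with earlier results of these data known. Same-number arrays of 48 h and 72 h deviated from their group means together (r of 0.230, 0.424 and 0.577 over genes). This comes from the data, since the labels give only numbers. The main fit nevertheless held no pairing, and its differences, SEs and calls between 72 h and 48 h are unpaired. Counts from a fit with the replicate number as a block are given beside them. Alternatives covered the added constant, filter, scaling, probe set choice, arrays fitted, array weights, a replicate block and each array left out.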

Additional observations from a re-analysis of the deposited data

Results flagged for a closer look

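The effect of induction, measured against the same uninduced arrays, differed between 48 h and 72 h by limma's test of the difference itself (adjusted p under 0.05) for 424 of 11810 genes (3.59%), and 27 of them are named here. The 6 largest differences each way were chosen by that difference and are a description. The other 15 are from a set open to naming whatever their values, of which 58 were tested and 18 called, 3 of these among the largest. These are log2 differences, 72 h minus 48 h. Nefm and Nefl, the neurofilament chains, differed by 2.73 and 2.52, Mapt by 2.57 and the microtubule proteins Dcx and Map2 by 1.19 and 0.67. L1cam, Sncg and Ppp1r1c differed by 2.55, 2.60 and 2.64. The synaptic genes Snap25 and Syt1 differed by 1.62 and 1.26, and the transporter Slc17a6 by 1.39.

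Among transcription factors the difference was 1.29 for Ebf1, 0.86 for Ebf3, 1.20 for Isl1 and 1.41 for Pou4f1. The receptors Ret and Ntrk2 differed by 1.41 and 0.92, and Nes by 1.81. The genes that were lower at 72 h than at 48 h were Tff3 (−2.26), Pdlim4 (−2.16), Gal (−2.14), Myh7b (−2.07), Pcolce (−1.96), Mfap4 (−1.89), Id1 (−1.87), Dll3 (−1.70) and Ccnd1 (−1.05). Ppp1r1c, Sncg, Mapt, L1cam, Nefl, Pcolce, Myh7b and Gal were called in 23 of 23 alternative fits, Ntrk2 in 13, Map2 in 14 and Ebf1 in 15 of 23, and Nes in 14 and Slc17a6 in 15 of 22. With the replicate number as a block all 27 were called.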

How the results depend on the processing

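Counts of genes called between 72 h and uninduced cells stayed within 1.5 times the reported count under the alternatives run, with the following exceptions. Genes called with a difference of 1 or more numbered 2614 with an added constant of 64, and genes called higher 2506 with the filter at percentile 75, where 7495 genes were tested and 48.2% of calls were higher. The fit of 12 arrays gave 5214 calls, and leaving out single arrays gave 6512 to 7254. The count between 72 h and 48 h moved most: 181 with an added constant of 1, 95 in the fit of 12 arrays, 2278 with array weights, and 128 to 462 without single arrays. With the replicate number as a block it was 805. Between 72 h and uninduced cells, same-number deviations correlated at 0.081 to 0.153, and the samples were likewise treated as unpaired in the main fit. For that comparison limma with the block gave 7854 calls, adjusted p = 0.00378 for Otx2 and 0.0495 for Id1. Over 3 groups 8 of 9 arrays correlated best with their own number. Lin28a was called higher after quantile normalization (0.43, adjusted p = 0.0286) and Ccnd1 without the arrays numbered 3 (0.43, adjusted p = 0.0181), where Id1 was called lower (−0.90, adjusted p = 0.0359). Differences that were not called changed sign for 4 named genes, and the cause was not tested. Hes1 was −0.25 after quantile normalization, −0.18 under median centring, −0.10 with array weights, and −0.19 and −0.08 without uninduced replicate 1 or 72 h replicate 3, with a range without single arrays of −0.19 to 0.29. Lifr was −0.20 under median centring and −0.37 as the mean of all probe sets. Ccnd1 was −0.20 and −0.036 under those settings, and −0.0026, −0.038 and −0.03 without uninduced replicate 1, 72 h replicate 1 or 72 h replicate 2, with a range without single arrays of −0.038 to 0.33. Lin28a was −0.12 under median centring. Dim genes are limited by the signal over background, since their differences move with the added constant.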

Other observations

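On the induced arrays numbered 3 some genes stood apart from arrays 1 and 2. The genes given here were chosen after their values were seen. The values are the log2(signal + 16) of array 3 minus the mean of arrays 1 and 2. Rarb, a retinoic acid receptor that is itself known to respond to retinoic acid, had a gap of 0.01 in uninduced cells, 3.20 at 48 h and 3.65 at 72 h, where its signals were 104, 88.0 and 1391. Hoxb4 had gaps of −0.21, 2.23 and 2.96 in the same order, and Hoxa5 of −0.04, 2.41 and 2.72. Array 3 was the highest of the group's 3 arrays for 4, 7 and 8 of the 9 Hox genes tested in that order. Genes of other kinds had gaps as large at 72 h: Csn3 (3.745, above that of Rarb), Srgn (3.09), Gpc3 (2.97) and F11r (2.95).

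Other genes were lower there. Olig2, a factor of the ventral neural tube, had gaps of −0.37, −2.59 and −3.32, and Otx2, of the anterior neural plate, of −0.99, −1.50 and −2.62. Tdgf1 (−2.72), Nts (−2.60) and Plagl1 (−2.43) had gaps of similar size at 72 h. Over the 11810 genes tested, 2 lay 2 or more above the mean of the other arrays in uninduced cells and 3 lay as far below. These counts were 42 and 13 at 24 h, where replicate 1 stood apart, 8 and 5 at 48 h, and 19 and 9 at 72 h. Genes that failed the filter are not in these counts. Hoxb5 and Hoxb6, also chosen after their values were seen, read 18.0, 23.4 and 1141, and 18.7, 19.7 and 1175 at 72 h. Array 3 of different times shares a number in the labels, and what the number stands for was not tested.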
